A study of Mus musculus with 6 samples.

Results

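The TaqMan rodent cards carried 5 assays for miRNAs of the miR-23, miR-24 and miR-27 clusters, out of 750 miRNA assays in all. They were chosen by name alone. An assay was taken when the number straight after miR- was exactly 23, 24 or 27 and the name did not end in #, the sign for the opposite arm of a hairpin. The rule gave mmu-miR-24, mmu-miR-27a, mmu-miR-27b, mmu-miR-23b and mmu-miR-23a, all on card A. A further 5 assays, on card B, measured opposite arms of the same hairpins, and they are described after the main assays.

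The study asked whether vitrification, a rapid freezing without ice crystals, changes the miRNAs of mouse blastocysts, the stage at which the embryo implants. Blastocysts were collected from superovulated and mated Kunming mice, CZB is the culture medium that the labels name, and pooled blastocysts were either vitrified or left fresh as the control, with 3 pools in each group (V1, V2 and V3, and F1, F2 and F3). The vitrified blastocysts were held for 30 s in 10% EG and 10% DMSO and for 25 s in EDFS30 inside an open-pulled straw, plunged into liquid nitrogen, and thawed for 5 min in 0.5 M sucrose. From each pool 30 ng of total RNA was reverse transcribed, pre-amplified and run on 2 cards of 384 wells. Each pool held whole embryos of the outbred stock, so inner cell mass and trophectoderm were measured together, and fewer cells of a type and less RNA per cell cannot be told apart. The pools are the replicates, and each p-value below sets a difference between groups against the spread between pools.

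Mammals carry these miRNAs in paired clusters, each with a miR-23, a miR-27 and a miR-24 hairpin, cut from 1 long primary transcript. The miRNAs of a cluster have different seeds, the bases near the 5′ end that pair with target mRNAs. miR-23 and miR-27 are known for their high levels in endothelium and their part in vessel growth, miR-27 also for holding back fat cell differentiation, and miR-24 for lowering cell cycle genes in differentiating cells. The mouse blastocyst itself is known for another cluster, miR-290 to miR-295, which is typical of pluripotent cells.

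The mature sequences show which assays share a seed and which locus each could come from. The seed, bases 2 to 8, is in capitals, all sequences are from RefSeq (GRCm38.p6), and 4 of the 5 assays matched an entry there. miR-23b is named only.
mmu-miR-23a-3p: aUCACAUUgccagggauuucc
mmu-miR-27a-3p: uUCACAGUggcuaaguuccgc
mmu-miR-27b-3p: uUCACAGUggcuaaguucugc
mmu-miR-24-3p: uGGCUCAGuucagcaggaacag

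The 2 miR-27 sequences had the same seed and differed by 1 base, C19U (miR-27a first, miR-27b second, counted from 1 at the 5′ end). The mature miR-24 sequence was the same from both of its hairpins, so a miR-24 Ct is the sum of both loci. On chromosome 8, Mir23a, Mir27a and Mir24-2 lay within 404 bases of the plus strand (chr8:84208518-84208921, GRCm38.p6), and no annotated gene spanned them. The mature miR-23a, miR-27a and miR-24 lay there at chr8:84208563-84208583, chr8:84208727-84208747 and chr8:84208875-84208896. On chromosome 13, Mir23b, Mir27b and Mir24-1 lay within 792 bases of the plus strand (chr13:63300484-63301275), inside the gene Aopep, with mature miR-27b at chr13:63300760-63300780 and miR-24 at chr13:63301251-63301272. Whether the assays tell the 2 miR-27 sequences apart was not tested.

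Each well gives a threshold cycle (Ct), the point in the PCR at which its signal rises above a fixed line. The lower the Ct, the more template the well held, and 1 cycle is 1 unit of log2. A well with no crossing within 40 cycles was recorded as undetermined. Of the 750 miRNA assays, 218 were determined in V1 and 140 in F1, against 382 to 409 in the other 4 pools. V1 and F1 therefore stood apart from their own groups, and the comparisons of the cluster assays between groups are given over all pools and over the pools numbered 2 and 3, apart from the count of assays without overlap, which is over all pools. The labelled cell type was checked with 13 assays of blastocyst and embryonic stem cell miRNAs (miR-290 to miR-295, miR-302 and miR-367). None of the 13 was determined in V1 and 1 in F1, against 7 in V2, 10 in V3, 9 in F2 and 7 in F3. The assays of miR-302a, miR-302c and miR-302d were undetermined in all 6 pools.

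miR-24 gave the earliest Ct of the cluster in every pool. In V1, V2 and V3 its raw Ct was 24.21, 20.78 and 21.07, and in F1, F2 and F3 it was 25.56, 20.37 and 19.05. Among the determined miRNA assays of card A, it was the assay with rank 2 by earliest Ct in V2, F2 and F3, rank 4 in V3, rank 5 in V1 and rank 8 in F1. Both pools numbered 1 were late, and the 2 groups overlapped.

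Both miR-27 assays crossed the threshold several cycles after miR-24. In V1, V2 and V3 the raw Ct of miR-27a was 32.80, 24.50 and 24.75, and in F1, F2 and F3 it was 30.46, 24.85 and 24.29. That of miR-27b, which has the same seed, was 33.72, 25.32 and 25.74 in the vitrified pools and 26.09 and 24.91 in F2 and F3, with F1 undetermined. In pools 2 and 3 each miR-27 assay kept within a range narrower than the delay of its pool 1. By rank on card A, miR-27a was between 49 of 212 (V2) and 61 of 239 (F2) in these 4 pools, and miR-27b between 66 of 212 (V2) and 90 of 239 (F2).

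miR-23b was later again, and miR-23a was not seen. The raw Ct of miR-23b was 27.27 in V2 and 28.10 in V3, and 29.01 in F2 and 27.33 in F3, with V1 and F1 undetermined. The same held for 16.8% of the 750 miRNA assays, which were determined in these 4 pools and in neither V1 nor F1. miR-23a, the first hairpin of the chromosome 8 locus, was undetermined in all 6 pools, as were 34.7% of the 750 assays. On the ΔCt scale described below, a well at 40 cycles on card A would lie between 22.18 (V1) and 23.41 (F2), which bounds what such a well could hold. Together, 21 of the 30 wells of the 5 assays were determined, and 2 assays, miR-24 and miR-27a, were determined in all 6 pools, as were 16.3% of the 750.

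The order miR-24, miR-27a, miR-27b, miR-23b from early to late held in every pool in which the assays were determined. Ct values of different assays also differ by the efficiency of each assay, so this is an order of Ct and not of molecules.

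**Figure D1:**
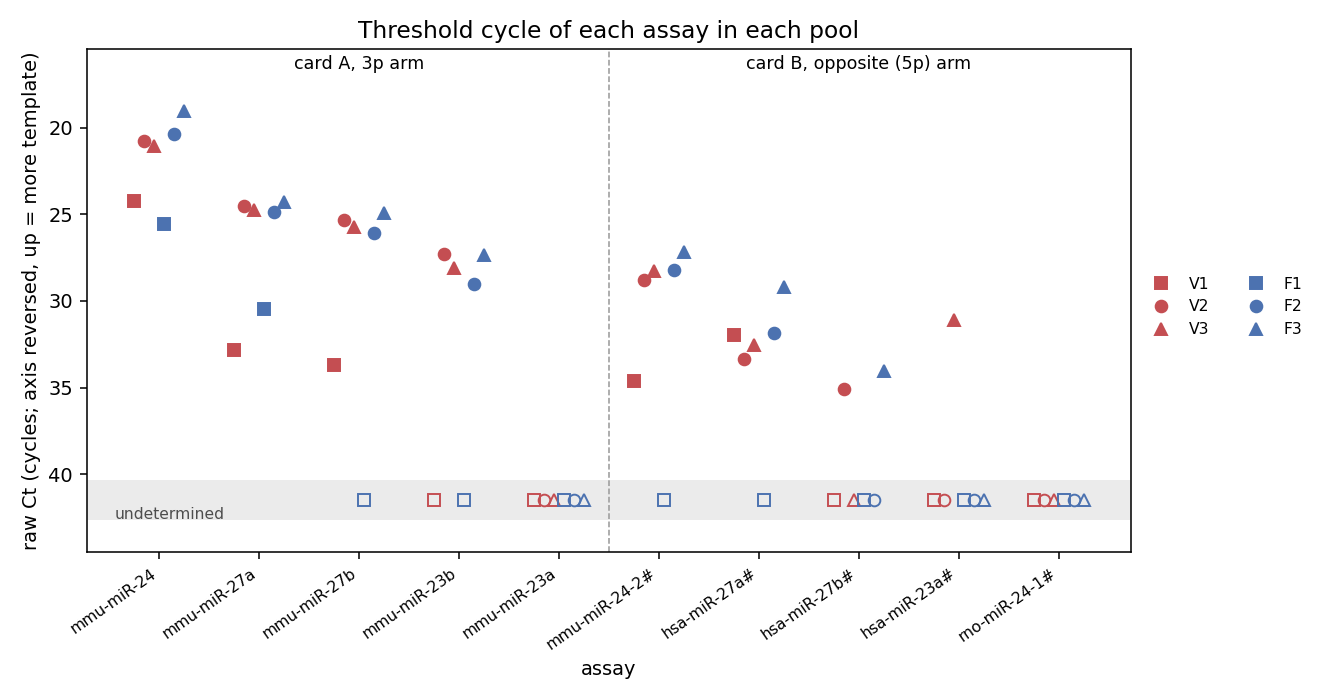
Raw Ct (cycles, axis reversed) of the 5 assays of card A and the 5 opposite arm assays of card B, with 1 point per pool, vitrified pools in red and fresh pools in blue, pools numbered 1 as squares, 2 as circles and 3 as triangles. Open symbols in the grey band are undetermined wells, and the squares of pools V1 and F1 lie below the other pools for miR-24 and miR-27a.

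The delay of the pools numbered 1 was not the same for miR-24 and miR-27. Over the 80 miRNA assays of card A determined in all 6 pools, the median delay of V1 against the mean of V2 and V3 was 4.64 cycles, and that of F1 against the mean of F2 and F3 was 6.38. miR-24 was later by 3.29 cycles in V1 and 5.86 in F1, both less than these medians. miR-27a was later by 8.17 cycles in V1, where 3 of the 80 assays had a larger delay, and by 5.89 in F1, where 43 had a larger delay. The 80 leave out assays undetermined in V1 or F1, miR-23b among them. On card A 140 miRNA assays were determined in V1, against 212 in V2 and 234 in V3. miR-27b was later by 8.19 cycles in V1, close to its seed partner. In V1 the miR-27 assays thus fell back further than miR-24, and in F1 miR-27a and miR-24 fell back by about the same number of cycles.

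To compare the groups, the mean Ct of the 4 U6 wells of the same card and pool was subtracted from each Ct to give ΔCt. U6, a small nuclear RNA, is the reference that the study used. A positive log2 fold change means a higher level in vitrified blastocysts.

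No assay of the clusters differed between vitrified and fresh blastocysts beyond the spread between pools. Of the 335 miRNA assays with at least 2 determined values in each group, 0.0% had an adjusted p-value under 0.05 in limma (Benjamini-Hochberg adjustment), and 0.299% (1 assay) had an unadjusted p-value under 0.05. Of these clusters, 4 of the 5 assays could be tested, all but miR-23a, and 0 of the 4 passed either threshold. The median log2 fold change was −0.17 over the 4 assays, with 2 of 4 higher in vitrified blastocysts, and −0.05 over all 335, with 48.1% higher. With other small RNA controls in place of U6 the median over all assays moved to −0.78, with 24.2% higher, and that over the 4 assays to −1.18, with 0 of 4 higher. The medians in the pools numbered 2 and 3 were −0.02 over 326 assays, with 49.4% higher, and 0.22 over the 4 assays, with 3 of 4 higher. Single pools moved both. Without V1 the median over all assays was 0.43 (65.4% higher) and 4 of 4 assays of the clusters were higher (median 0.82), and without F1 it was −0.88 (30.1% higher) and 1 of 4 was higher (median −2.01). With undetermined wells set to 40 cycles, 66.5% of 490 assays and 3 of the 4 were higher.

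For miR-24 the ΔCt in V1, V2 and V3 was 6.40, 3.68 and 4.10, and in F1, F2 and F3 it was 8.48, 3.78 and 2.09. Vitrified blastocysts had a mean of 4.73 ± 1.46 (SD, n = 3) and fresh blastocysts of 4.79 ± 3.31 (SD, n = 3) (2-sided exact permutation test, p = 0.9, where 0.1 is the smallest that 3 pools against 3 allow). The log2 fold change was 0.06 (SE 1.83, 95% interval −4.36 to 4.48). In the pools numbered 2 and 3 alone it was −0.95 (SE 0.78, 95% interval −2.96 to 1.05). F1, the pool with least miR-24, and F3, the pool with most, are both fresh pools, and the vitrified pools lay between them.

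For miR-27a the ΔCt in V1, V2 and V3 was 14.99, 7.40 and 7.79, and in F1, F2 and F3 it was 13.38, 8.26 and 7.33. The means were 10.06 ± 4.27 (SD, n = 3) and 9.66 ± 3.26 (SD, n = 3) in vitrified and fresh blastocysts (same exact permutation test, p = 0.8), a log2 fold change of −0.40 (SE 2.58, 95% interval −6.65 to 5.84). In the pools numbered 2 and 3 alone the log2 fold change was 0.20 (SE 0.64, 95% interval −1.44 to 1.83). The groups overlapped in both comparisons, and the sign turned when V1 and F1 were left out.

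For miR-27b the ΔCt in V1, V2 and V3 was 15.91, 8.21 and 8.78, and in F2 and F3 it was 9.51 and 7.95, with F1 excluded as undetermined. The means were 10.97 ± 4.29 (SD, n = 3) and 8.73 ± 1.10 (SD, n = 2) in vitrified and fresh blastocysts (exact permutation test, p = 0.8, where 0.1 is the smallest possible), a log2 fold change of −2.24 (SE 2.61, 95% interval −8.83 to 4.36). This value sets a late V1 against fresh pools from which F1, with no crossing within 40 cycles, was dropped. Without V1 the log2 fold change was 0.23, which is also its value in the pools numbered 2 and 3 (SE 0.76, 95% interval −1.72 to 2.19) and with the pool number as a block. With undetermined wells set to 40 cycles it was 2.49.

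For miR-23b the ΔCt was 10.16 in V2 and 11.13 in V3, and 12.42 in F2 and 10.37 in F3, with V1 and F1 excluded as undetermined. The means were 10.65 ± 0.69 (SD, n = 2) and 11.40 ± 1.45 (SD, n = 2) in vitrified and fresh blastocysts (exact permutation test, p = 0.667, where 0.333 is the smallest possible), a log2 fold change of 0.75 (SE 1.36, 95% interval −2.92 to 4.41). With the spread estimated from the pools numbered 2 and 3 alone the 95% interval was −1.58 to 3.07. F3 lay between V2 and V3, and F2 had less than both.

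The adjusted p-value of all 4 assays was 0.998 in limma over all pools, and between 0.912 and 0.937 in the pools numbered 2 and 3. Without a block the intervals were wide, so that a change of several log2 units in either direction could not be told from no change over all 6 pools. With the pool number as a block the intervals of all 4 assays were narrower and still included 0. A separation of the groups without overlap of ΔCt was found for 15.2% of the 335 assays and for 0 of these 4.

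**Figure D2:**
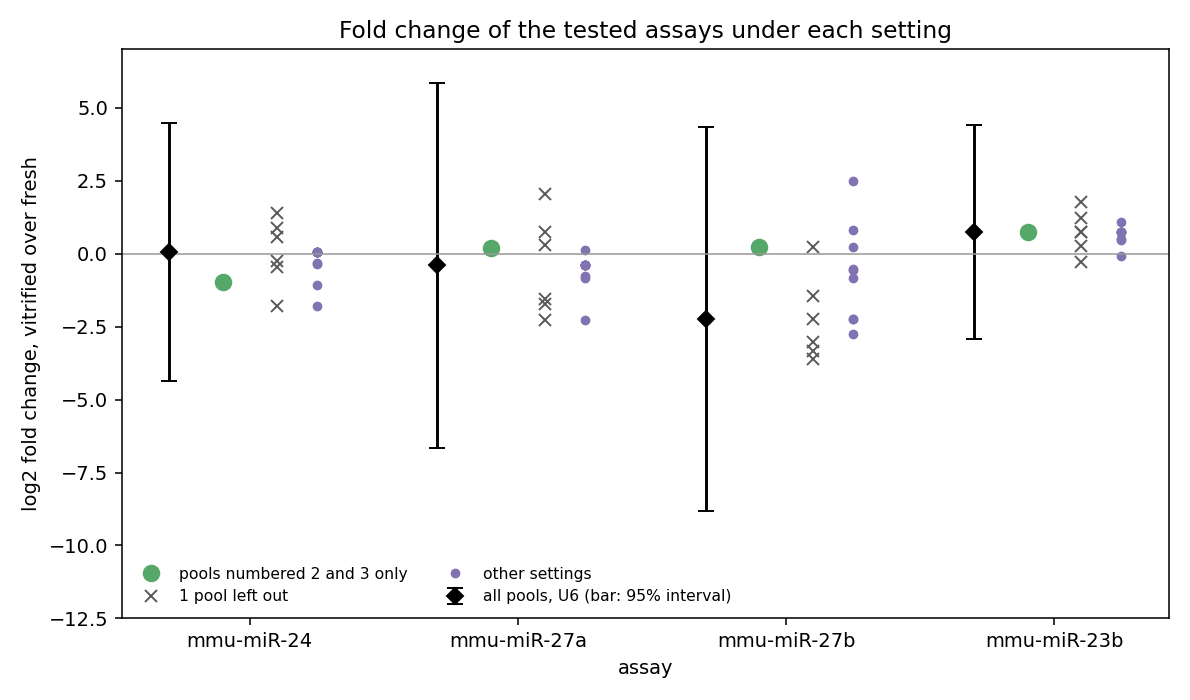
Log2 fold change (vitrified over fresh) of the 4 tested assays, with all pools and U6 as black diamonds (bars are 95% intervals from limma), the pools numbered 2 and 3 alone as green circles, each pool left out in turn as crosses, and the other processing settings as purple points. All 4 intervals include 0, and the points of every assay lie on both sides of 0.

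Same-numbered pools gave no shared direction either. The log2 fold change of miR-24 was 2.09 between V1 and F1, 0.11 between V2 and F2 and −2.01 between V3 and F3. For miR-27a these values were −1.61, 0.86 and −0.46. For miR-27b they were 1.29 and −0.83, and for miR-23b 2.26 and −0.76, both without the pools numbered 1. The direction of miR-24 between V2 and F2 depended on U6, since its raw Ct was 0.41 cycles later in V2 than in F2.

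Levels of 2 assays of the same card can also be set against each other inside a pool, where U6 and the amount of cDNA cancel. In total 6 pairs were compared, and the adjusted p-value of each was 1.0 (exact permutation tests, Benjamini-Hochberg over the 6 pairs).

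The miR-27 pair, with 1 seed and 2 loci, kept the most even distance. The Ct of miR-27a minus that of miR-27b was −0.92, −0.81 and −0.99 cycles in the vitrified pools, and −1.25 and −0.62 in F2 and F3. The mean difference in vitrified blastocysts was −0.91 ± 0.09 (SD, n = 3) cycles and in fresh blastocysts −0.93 ± 0.44 (SD, n = 2), 0.03 apart (SE 0.32; exact permutation p = 1.0). The means were −0.90 and −0.93 in the pools numbered 2 and 3. The pair held this distance in V1 as well, although both assays were late there.

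miR-24 and miR-27a, which share the chromosome 8 locus, kept a less even distance. The Ct of miR-24 minus that of miR-27a was −8.59, −3.72 and −3.69 in V1, V2 and V3, and −4.89, −4.47 and −5.24 in F1, F2 and F3. The means were −5.33 ± 2.82 (SD, n = 3) and −4.87 ± 0.38 (SD, n = 3) cycles, a difference of −0.46 (SE 1.64; exact permutation p = 1.0). In the pools numbered 2 and 3 the means were −3.70 and −4.86, a difference of 1.15 in the other direction. V1 decided the sign, since V2 and V3 lay above all 3 fresh pools and V1 below them.

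miR-24 minus miR-27b behaved alike, at −9.51, −4.54 and −4.67 in V1, V2 and V3 and at −5.72 and −5.86 in F2 and F3. The difference between groups was −0.45 cycles (SE 1.64; exact permutation p = 1.0), and 1.19 in the pools numbered 2 and 3.

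miR-23b minus miR-24 did not overlap between the groups, in the 2 pools of each group where it could be taken. It was 6.49 cycles in V2 and 7.03 in V3, and 8.64 in F2 and 8.28 in F3. The means were 6.76 ± 0.39 (SD, n = 2) and 8.46 ± 0.25 (SD, n = 2), a difference of −1.70 cycles (SE 0.33; exact permutation p = 0.333, the smallest that 2 pools against 2 allow). Relative to miR-24, miR-23b was thus higher in V2 and V3 than in F2 and F3, and this design cannot reach a p of 0.05. In these 4 pools miR-27a and miR-27b were also higher relative to miR-24 in V2 and V3, so this is not particular to miR-23b. The raw Ct of miR-24 itself was later in V2 and V3 (20.78 and 21.07) than in F2 and F3 (20.37 and 19.05). With undetermined wells set to 40 cycles the difference of miR-23b minus miR-24 was −0.68 (exact permutation p = 0.7). How many other assay pairs of card A did not overlap between the groups was not counted. The 3 pairs with miR-24 share its wells, so they are not separate measurements.

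The other pairs of miR-23b differed less. miR-23b minus miR-27a was 2.76 in V2 and 3.35 in V3, and 4.16 in F2 and 3.04 in F3, a difference of −0.55 cycles (SE 0.63; exact permutation p = 0.667). miR-23b minus miR-27b, its neighbour on chromosome 13, was 1.95 in V2 and 2.36 in V3, and 2.91 in F2 and 2.42 in F3, a difference of −0.51 (SE 0.32; exact permutation p = 0.333). The first pair overlapped between groups, and the second did not. With undetermined wells set to 40 cycles the difference of the second turned to 1.75 (exact permutation p = 0.6).

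**Figure D3:**
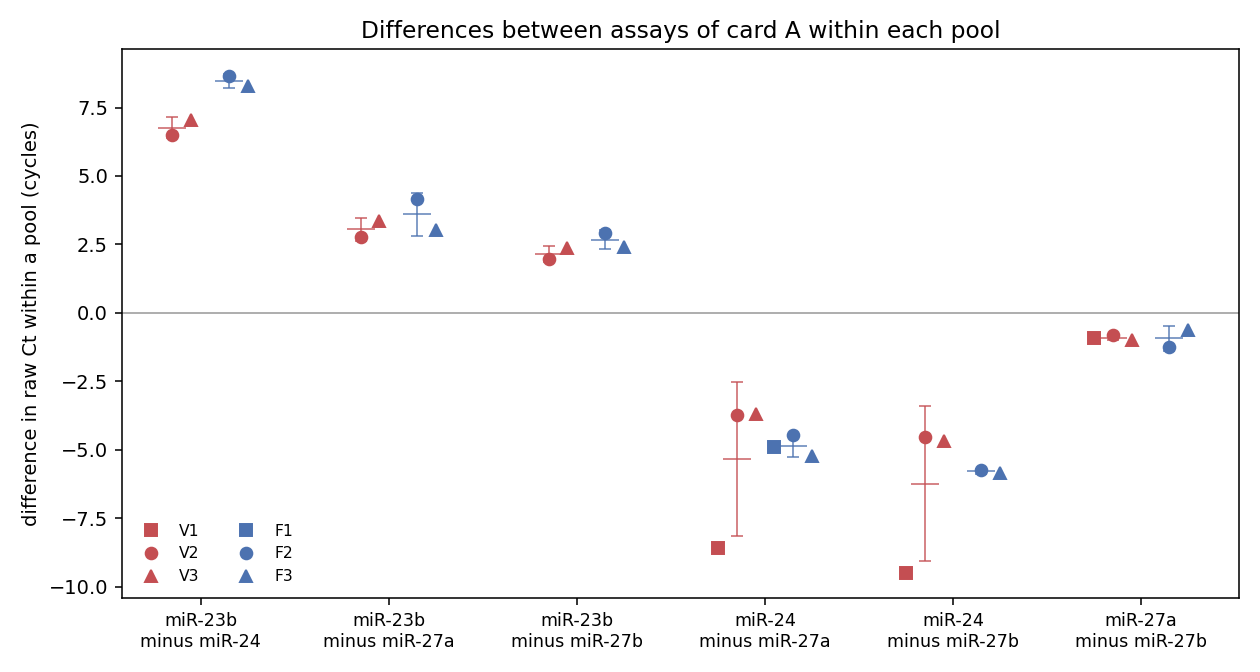
Difference in raw Ct (cycles) between 2 assays of card A inside each pool, with 1 point per pool, vitrified in red and fresh in blue, and horizontal marks with bars for the group mean and SD. miR-27a minus miR-27b lies between −1.25 and −0.62 in all 5 pools, whereas miR-24 minus either miR-27 assay lies furthest from the others in V1.

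The opposite arms, the strands of the hairpins that are usually less abundant, were measured on card B. Their assays carry names of mouse, human or rat. The mouse sequences of these arms, again from RefSeq and with the seed in capitals, show that the 5′ arms of miR-27a and miR-27b differ inside the seed while those of both miR-24 hairpins do not.
mmu-miR-23a-5p: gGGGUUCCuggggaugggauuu
mmu-miR-27a-5p: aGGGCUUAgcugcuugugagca
mmu-miR-27b-5p: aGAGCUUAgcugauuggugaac
mmu-miR-24-2-5p: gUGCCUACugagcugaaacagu
mmu-miR-24-1-5p: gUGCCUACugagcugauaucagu

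mmu-miR-24-2#, the opposite arm from the chromosome 8 locus, had a raw Ct of 34.62, 28.78 and 28.26 in V1, V2 and V3, and of 28.20 and 27.17 in F2 and F3, with F1 undetermined. Its log2 fold change was −2.62 (SE 2.06, adjusted p = 0.998 in limma) and −0.77 (SE 0.71) in the pools numbered 2 and 3. As for miR-27b, F1 was dropped and a late V1 kept, and the value turned to 1.54 (SE 3.85) with undetermined wells set to 40 cycles. F2 and F3, but not the undetermined F1, lay before all 3 vitrified pools in raw Ct, and V2 lay below F2 in ΔCt. rno-miR-24-1#, named for the arm from the chromosome 13 locus, was undetermined in all 6 pools.

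hsa-miR-27a# had a raw Ct of 31.99, 33.37 and 32.53 in V1, V2 and V3, and of 31.83 and 29.19 in F2 and F3, with F1 undetermined. Its log2 fold change was −1.87 (SE 1.32, adjusted p = 0.998 in limma; exact permutation p = 0.3 for 3 pools against 2) and −2.37 (SE 1.07, adjusted p = 0.867 in limma) in the pools numbered 2 and 3. It was −0.05 with other small RNA controls as the reference, −0.44 without F3, −3.30 without F2 and 1.35 with undetermined wells set to 40 cycles. Its raw Ct was later in all 3 vitrified pools than in F2 and F3, while the ΔCt of F2 lay above that of V1. How many other assays had such an order in raw Ct was not counted. hsa-miR-27b# was determined in V2 at 35.08 and in F3 at 34.06 only. hsa-miR-23a# was determined in V3 at 31.09 only, although miR-23a itself was undetermined in that pool.

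The distance between the arms, each against the U6 of its own card, was not alike for miR-24 and miR-27a. The miR-24 Ct sums both loci while mmu-miR-24-2# is named for the chromosome 8 hairpin, so the miR-24 distance is not that of 1 hairpin. The ΔCt of mmu-miR-24-2# was above that of miR-24 by 7.38 in V2, 7.65 in V3, 7.48 in F2 and 7.91 in F3, and by 10.57 in V1. The ΔCt of hsa-miR-27a# was above that of miR-27a by 8.25 in V2, 8.23 in V3, 6.64 in F2 and 4.70 in F3, and differed by −0.65 in V1. The miR-24 arms thus differed by nearly the same ΔCt in 4 pools and by more in V1, while the miR-27a arms differed by less in V1 than in the other pools. These are distances between assays of unlike efficiency and not ratios of molecules. The arms lie on different cards, and the median delay of V1 was 1.80 cycles over 42 assays of card B against 4.64 on card A. hsa-miR-27a# was 0.96 cycles earlier in V1 than the mean of V2 and V3 (a difference of −0.96), and mmu-miR-24-2# was 6.10 later. The part of the card in this difference was not tested.

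The bases 2 to 7 of each seed were searched for in the first 9 bases of other RefSeq mouse miRNAs. Of those found, miR-128 and miR-484 were matched to an assay, mmu-miR-128a and mmu-miR-484. miR-673-5p holds the miR-27 bases from position 2, but which arm the assay mmu-miR-673 of card B measures is not in its name. The raw Ct of mmu-miR-673 was 32.01 in V2 and 30.50 in V3, with V1 undetermined. In F1, F2 and F3 it was 26.27, 33.34 and 31.78, so F1 was the earliest pool. The log2 fold change was −0.67 (SE 2.24, adjusted p = 0.998 in limma). miR-128 holds the miR-27 bases UCACAG shifted by 1 base towards the 5′ end, as its sequence shows.
mmu-miR-128-3p: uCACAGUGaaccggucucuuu
Its assay, mmu-miR-128a, had a raw Ct of 28.99 in V2 and 30.61 in V3, and 31.26 in F2 and 31.15 in F3, with V1 and F1 undetermined. The log2 fold change was 1.67 (SE 1.28, adjusted p = 0.998 in limma). Its ΔCt values did not overlap between groups (exact permutation p = 0.333, the smallest that 2 pools against 2 allow). The same held for 15.2% of the 335 assays. miR-484, which holds the miR-24 bases GGCUCA from position 4, had a log2 fold change of −0.12 (SE 0.84, adjusted p = 0.998 in limma). Its mean ΔCt in the pools numbered 2 and 3 was 5.90 in vitrified and 5.50 in fresh blastocysts. Its raw Ct stayed between 22.18 and 23.82 in all 6 pools, and its delay was 0.88 cycles in V1 and 1.27 in F1, against medians of 4.64 and 6.38 on the card.

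The profiles most like those of miR-24 and miR-27a were looked for among the 79 other assays of card A determined in all 6 pools, as the root mean square difference of −ΔCt centred on its mean. For miR-24 they were mmu-miR-200a (0.269 cycles), mmu-miR-222 (0.291) and mmu-miR-135b (0.454), against a median of 1.38 over the 79. For miR-27a they were mmu-miR-30d (0.474), mmu-miR-708 (0.738) and mmu-miR-195 (0.790), against a median of 1.79. Neither list held the other assay of the cluster, and miR-27b and miR-23b could not be listed, as neither was determined in all 6 pools. The raw Ct of mmu-miR-200a was 26.38, 22.67 and 23.22 in V1, V2 and V3, and 27.14, 22.31 and 21.49 in F1, F2 and F3. That of mmu-miR-30d was 32.87, 25.61 and 25.78 in the vitrified pools and 32.01, 25.32 and 25.09 in the fresh pools in the same order. Both were late in V1 and F1, as were miR-24 and miR-27a.

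In the 4 pools left without V1 and F1, 3 of the 4 assays lay above their own mean in V2 and F3 only, 1 pool of each group. So did 27% of the 326 miRNA assays determined in these pools, the endothelial miR-126 assays among them. After centring each assay on its mean over V2, V3, F2 and F3, the level of miR-23b was 0.86, −0.11, −1.40 and 0.65 (log2) in these pools, that of miR-27a 0.29, −0.09, −0.56 and 0.37, and that of miR-27b 0.40, −0.16, −0.90 and 0.66. These 3 assays were above their mean in V2 and F3 and below it in V3 and F2. Their values in V3 were close to 0, and the 4 U6 wells of card A in V3 had an SD of 0.51 cycles. miR-24 was above its mean in F3 only, at 1.32, and at −0.26, −0.69 and −0.37 in V2, V3 and F2.

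The endothelial miR-126-3p was also high in V2 and F3 and low in V3 and F2, at 0.48 in V2, −0.97 in V3, −0.91 in F2 and 1.39 in F3, and so did miR-126-5p. The muscle assays mmu-miR-133a, mmu-miR-133b and mmu-miR-1 did so in 2 of 3 cases. The blastocyst assays did the reverse: miR-292-3p on card A was at −1.15 in V2, 1.15 in V3, 0.73 in F2 and −0.72 in F3, and all 7 assays of that list determined in the 4 pools were low in V2 and F3 and high in V3 and F2. Of the 326 miRNA assays determined in these 4 pools, 88 (27%) were high in V2 and F3 and low in V3 and F2, and 13 (4.0%) showed the reverse. The pattern was described after the values were seen, and it was given no test.

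The summed levels of the marker lists differed in which pools were high. The summed level of both endothelial assays corresponded to a ΔCt of 3.73 in V2 and 5.21 in V3, and 5.10 in F2 and 2.85 in F3. That of the blastocyst list was 7.51 in V2 and 5.30 in V3, and 5.58 in F2 and 7.23 in F3. For muscle it was 7.43, 8.24, 8.35 and 5.96 in V2, V3, F2 and F3. The sum of the blood list lay between 4.05 and 4.55, and that of the ciliated oviduct list between 9.24 and 9.41, with little spread over the 4 pools. Single blood assays were less even. In V2, V3, F2 and F3 the raw Ct of miR-150 was 23.33, 24.17, 22.74 and 22.02, and that of miR-451 was 22.68, 21.91, 22.82 and 23.54. miR-150 was thus later in V3 than in F3, and miR-451, miR-223, miR-142-3p and miR-142-5p were earlier. The liver miRNA miR-122 was determined in V3 and F2 only. In the pools numbered 1 the endothelial value was 9.73 in V1 and 11.59 in F1, from miR-126-3p alone. The sum of the ciliated oviduct list was 6.65 in V1, its highest level in any pool, and 10.41 in F1. The V1 sum came mainly from miR-449a, at a raw Ct of 24.52 against 26.98 to 27.94 in the other pools. miR-34c (29.77) and miR-34b-5p (33.29) were later in V1 than in V2, V3, F2 and F3, and miR-449b of card B (30.71) lay within their range. The blood sum was 7.17 in V1 and 6.23 in F1, and the muscle sum 12.4 and 13.3, from 1 assay. The blastocyst list had no determined assay in V1 and 1 in F1, at 16.27. The part of other cell types in the levels of the cluster was not tested.

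**Figure D4:**
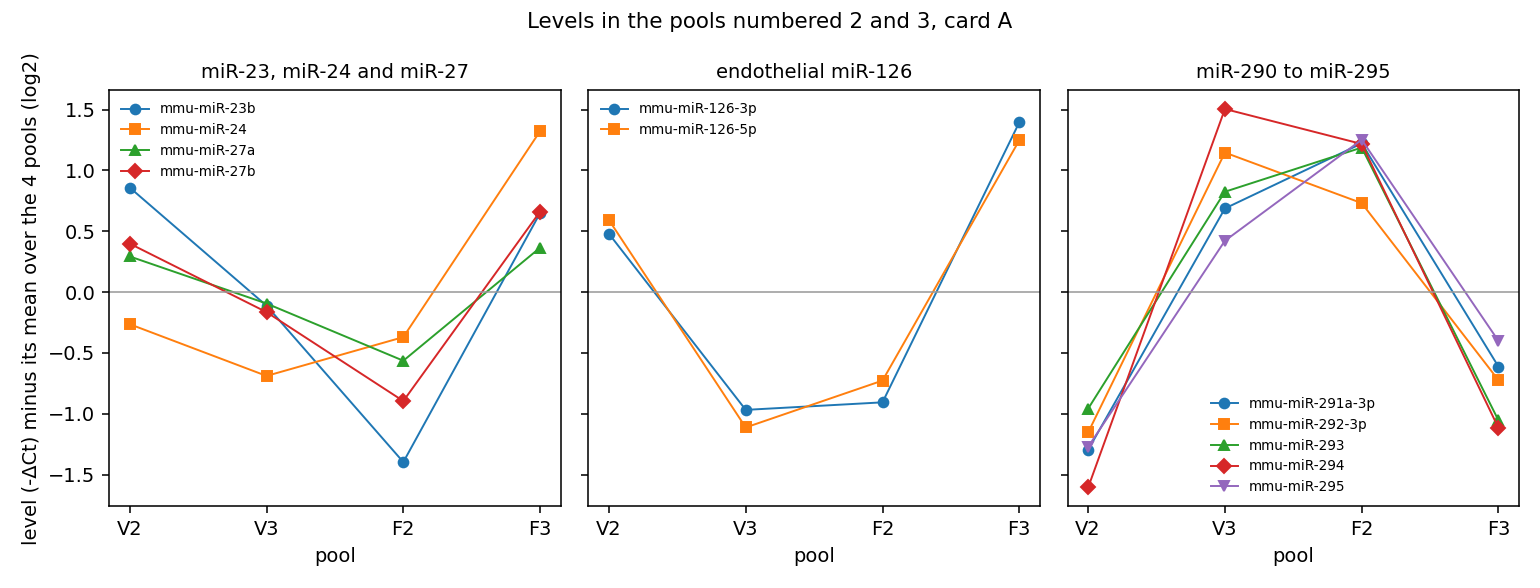
Level (−ΔCt minus its mean over the 4 pools, log2 scale) of assays of card A in V2, V3, F2 and F3, with 1 line per assay, for miR-23, miR-24 and miR-27 (left), the endothelial miR-126 assays (middle) and assays of miR-291 to miR-295 (right). miR-23b, miR-27a, miR-27b and both miR-126 assays are above 0 in V2 and F3, whereas the 5 assays on the right are above 0 in V3 and F2.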

How the data were processed

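Total RNA of 3 vitrified and 3 fresh pools was run on cards A and B of the TaqMan rodent miRNA set (v3.0), and the authors deposited 1 raw Ct per assay and pool, read with RQ Manager and not normalized. These deposited values are log2-like, with a lower Ct for more template. A deposited table of the authors' own signed fold changes against U6 was not used. Groups and pool numbers were taken from the sample labels.

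Wells that were undetermined or at 40 cycles or more were excluded, as in the study's methods, and ΔCt was taken against the mean Ct of 4 U6 wells on that card and pool. The 335 assays determined in at least 2 pools of each group were fitted on −ΔCt with limma 3.58.1 (lmFit, then eBayes) under R 4.3.3, with Benjamini-Hochberg adjustment over all of them. Single assays and within-pool differences were tested by 2-sided exact permutation of the pools. Tables and permutations used pandas 2.3.3, scipy 1.17.1 and numpy 2.4.6 under Python 3.11.15, and figures matplotlib 3.10.9. The model was also tested on simulated data. The number of pools limits the precision, and no read depth applies to Ct values.

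Pools of the same number in the labels deviated together from their group means over 122 assays (correlations across assays of 0.80, 0.78 and 0.67 for numbers 1, 2 and 3). The deviations within a group sum to 0, so these are not separate checks. The pool number as a block is an alternative.

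The assays named are those chosen by the rule, the opposite arms of their hairpins, other miRNAs with the bases 2 to 7 of a seed in their first 9 bases, the 3 nearest profiles of each assay determined in all 6 pools, and cell type markers. The members and lists were chosen with earlier results of these data known. Alternatives were other references (small RNA controls, 2 for card A and 1 for card B, the mean of miRNA assays determined in all pools, or none), undetermined wells given 40 or a ceiling of 35, a Ct limit of 35, assays determined in all pools, the block, each pool left out, the pools numbered 2 and 3 only, a variance trend with a robust prior, and an unmoderated comparison of linear values. Sequences and coordinates are from RefSeq, GRCm38.p6.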

Additional observations from a re-analysis of the deposited data

Results flagged for a closer look

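The opposite arm assay hsa-miR-23a# gave a raw Ct of 31.09 in V3 (ΔCt 14.58), a signal outside the compared assays, while the other 5 pools, all 3 fresh controls among them, were undetermined. No replicate exists for this well, and its sequence partner mmu-miR-23a was undetermined in all 6 pools.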

How the results depend on the processing

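No alternative of the 17 gave an adjusted p-value under 0.05 for any assay (0 in each, by limma and by the unmoderated comparison), with 0 to 16 unadjusted ones, and the adjusted p-values of miR-23b, miR-24, miR-27a and miR-27b lay between 0.836 and 0.999. The direction was less stable, with the sign turned under 2 of 16 alternatives for miR-23b, 8 of 17 for miR-24, 5 of 17 for miR-27a and 5 of 16 for miR-27b. Some alternatives left an estimate unchanged and could not turn its sign, so these counts understate how easily it turned. The Ct limit of 35, the block and the variance trend did so for miR-23b, miR-24 and miR-27a. With other small RNA controls as the reference the log2 fold change was −0.071 for miR-23b and −1.80 for miR-24. miR-24 was at −0.31 with the mean of miRNA assays as the reference and at −0.36 with none. In the pools numbered 2 and 3 it was −0.95 for miR-24, 0.20 for miR-27a and 0.23 for miR-27b, and on linear values −1.07 for miR-24 and 0.13 for miR-27a. miR-27b was at 2.49 with undetermined wells set to 40 and at 0.83 with the ceiling of 35. Leaving out 1 pool at a time, the log2 fold change ranged from −0.28 to 1.77 for miR-23b, −1.79 to 1.41 for miR-24, −2.26 to 2.06 for miR-27a and −3.61 to 0.23 for miR-27b.

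With the replicate number as a block the log2 fold change was 0.75 for miR-23b, 0.06 for miR-24, −0.40 for miR-27a and 0.23 for miR-27b, and the within-pool difference of miR-24 and miR-27b was 1.19. The SE in limma fell with the block, from 1.83 to 0.99 for miR-24 and from 2.58 to 0.83 for miR-27a. For miR-27b it fell from 2.61 to 1.08, and for miR-23b from 1.36 to 1.18. The limma interval with the block was −2.34 to 2.46 for miR-24 and −2.42 to 1.61 for miR-27a. Part of the width of the intervals without the block thus came from differences shared by same-numbered pools. The block changed no call, and the count of unadjusted p-values under 0.05 went from 1 of 335 to 4 of 330.

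The group difference of miR-23b minus miR-24 was −0.68 cycles with undetermined wells set to 40 or to 35 (exact permutation p = 0.7). The other 9 alternatives, between −1.97 and −1.43, could not turn it, since V1 and F1 hold no miR-23b and the other pools do not overlap. With undetermined wells set to 40, miR-23b minus miR-27b was 1.75 and miR-24 minus miR-27b 2.43, and with the ceiling 0.083 and 0.77. In the pools numbered 2 and 3, miR-24 minus miR-27a was 1.15 and miR-24 minus miR-27b 1.19. With each pool left out, the ranges were −1.11 to 0.011 for miR-23b minus miR-27a, −0.76 to −0.27 for miR-23b minus miR-27b, −1.29 to 1.16 for miR-24 minus miR-27a, −1.30 to 1.19 for miR-24 minus miR-27b and −0.29 to 0.34 for miR-27a minus miR-27b. The cause of these changes was not tested, except that leaving out V1 or F1 alone removes 1 late pool from 1 group. Late or undetermined wells in V1 and F1 and 2 to 3 pools a group limit every value.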
